A study of Gallus gallus with 30 samples.

Results

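Breast muscle (Pectoralis major) RNA of male Arbor Acres (AA) broilers aged 8 weeks (8 w) was set against that of AA broilers aged 6 weeks (6 w). The 6 arrays with these labels, 3 per age, were taken out of 30 arrays in all. Each age is represented by 1 pool, made from total RNA of 5 randomly chosen males, and the pool was measured on 3 Affymetrix Chicken Genome Arrays. The 3 arrays of a pool therefore repeat the measurement and not the birds. Both pools came from unmodified, untreated birds in floor pens with an 18 h light and 6 h dark cycle and were fed a commercial layer diet. The 6 layer arrays come from other birds kept in the same way and are given beside the broiler values. They hold White Leghorn males at 8 w and 6 w, 1 pool of 5 males per age. Younger pools of both lines, at 4 w, 2 w and 1 d (d for day), were likewise made from 5 males and measured on 3 arrays. Their values serve for levels by age, ranks among pools, steps between neighbouring ages and the test over both lines.

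The breast muscle of the chicken consists almost wholly of fast, glycolytic fibres, and in broilers it has been selected for rapid growth. Growth of such muscle after hatch depends on protein synthesis in existing fibres and on division of satellite cells, the muscle stem cells that fuse with them. When feed is short or glucocorticoid hormones are high, FoxO transcription factors and the glucocorticoid receptor switch on a set of muscle genes that restrain glucose use and break down protein. Sterol synthesis is controlled by another factor, SREBP2, which switches on the enzymes of the pathway when cholesterol in the cell runs low.

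Values are RMA log2 signals, on which a step of 1 is a 2-fold difference. With 1 pool per age no p-value can be given for the change in broilers, and a probe set was called when the pools differed at least 2-fold and all 3 arrays of one pool lay above all 3 of the other. The median SD of 3 arrays was 0.13 at 8 w and 0.14 at 6 w, and it measures technical error only. In all, 188 of 38439 probe sets were called higher at 8 w (0.489%) and 126 were called lower (0.328%). All 314 called changes were larger than the larger array SD of the 2 pools, but so were 31.8% of all changes, and the arrays of the pools did not overlap in 19.4% of all probe sets. With 1 probe set for each of 13009 genes, the one with the highest mean over the 6 arrays, 88 genes were called higher (0.676%) and 64 lower (0.492%), and the median change over all genes was -0.02. In layers the same rule called 60 probe sets higher at 8 w (0.156%) and 83 lower (0.216%), and the first of these counts rested on single arrays, since it was 124 without the first 8 w array and 152 without the second 6 w array of the layers.

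**Figure D1:**
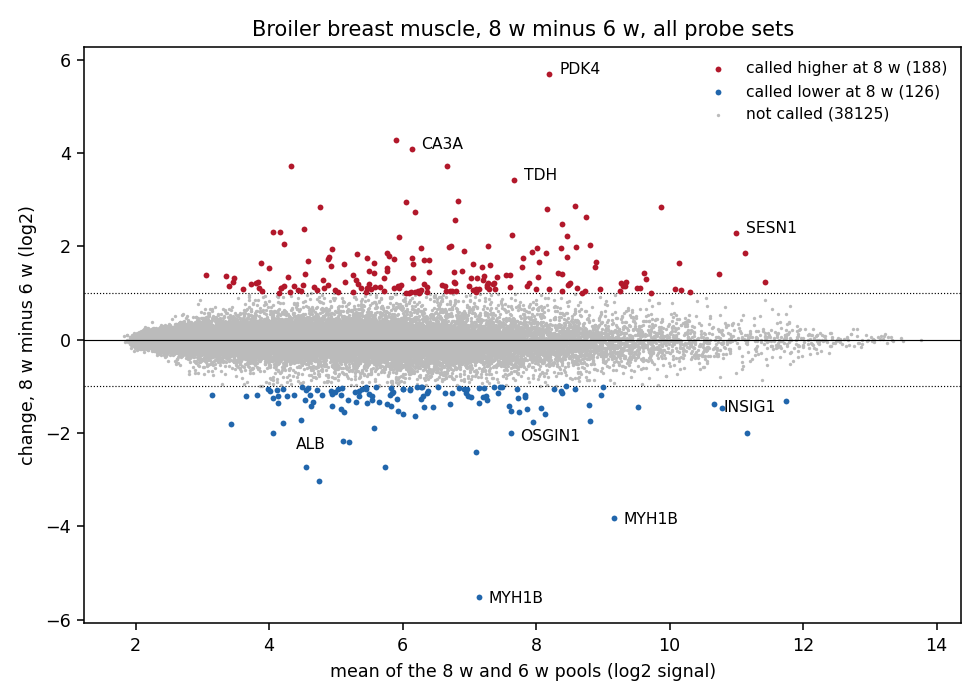
Change of each of 38439 probe sets between the broiler pools (8 w minus 6 w, log2, vertical axis) against the mean of both pools (log2 signal, horizontal axis). Red points are the 188 probe sets called higher at 8 w, blue points the 126 called lower, dotted lines mark a 2-fold change, and the largest rise is PDK4 at 5.70.

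The arrays and the tissue were checked first. Array medians lay between 4.09 and 4.17 at 8 w and between 4.12 and 4.14 at 6 w. Squared correlations were 97.0 to 98.7% between arrays of a pool and 96.1 to 97.7% between the pools. The signal at the 3' end minus that at the 5' end, a sign of RNA length, averaged 1.57 ± 0.20 at 8 w and 1.83 ± 0.56 at 6 w for actin, and -0.44 ± 0.06 at 8 w and -0.47 ± 0.07 at 6 w for GAPDH (log2, SD of 3 arrays). The 6 defining genes of skeletal muscle that could be matched changed by -0.04 to 0.09. Among them TNNI2, the fast troponin I, read 13.47, 13.47 and 13.49 at 8 w, against 13.48, 13.53 and 13.53 at 6 w. In pooled tissue fewer cells of a type and less RNA per cell cannot be told apart.

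Most of the large changes were rises. Of the called probe sets 27 were at least 4-fold higher at 8 w, against 9 that were at least 4-fold lower, and 6 were at least 8-fold higher, against 3 that were at least 8-fold lower. PDK4, the kinase that shuts pyruvate out of mitochondrial oxidation, read 11.04, 11.11 and 11.01 on the 8 w arrays, against 5.72, 5.22 and 5.10 on the 6 w arrays. The arrays of the 2 ages were far apart, and the change of 5.70 (52.1-fold) was 17.3 times the larger array SD. CA3A, a carbonic anhydrase III, stood at 7.98, 8.26 and 8.31 at 8 w and at 3.58, 4.38 and 4.33 at 6 w. Its change of 4.09 (17-fold) rests on its brighter probe set, since the other one, at 2.63 at 8 w, changed by -0.01. TDH, the mitochondrial enzyme that breaks down threonine, had 9.28, 9.37 and 9.50 at 8 w, against 6.08, 5.90 and 5.93 at 6 w, a change of 3.41 (10.6-fold).

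**Figure D2:**
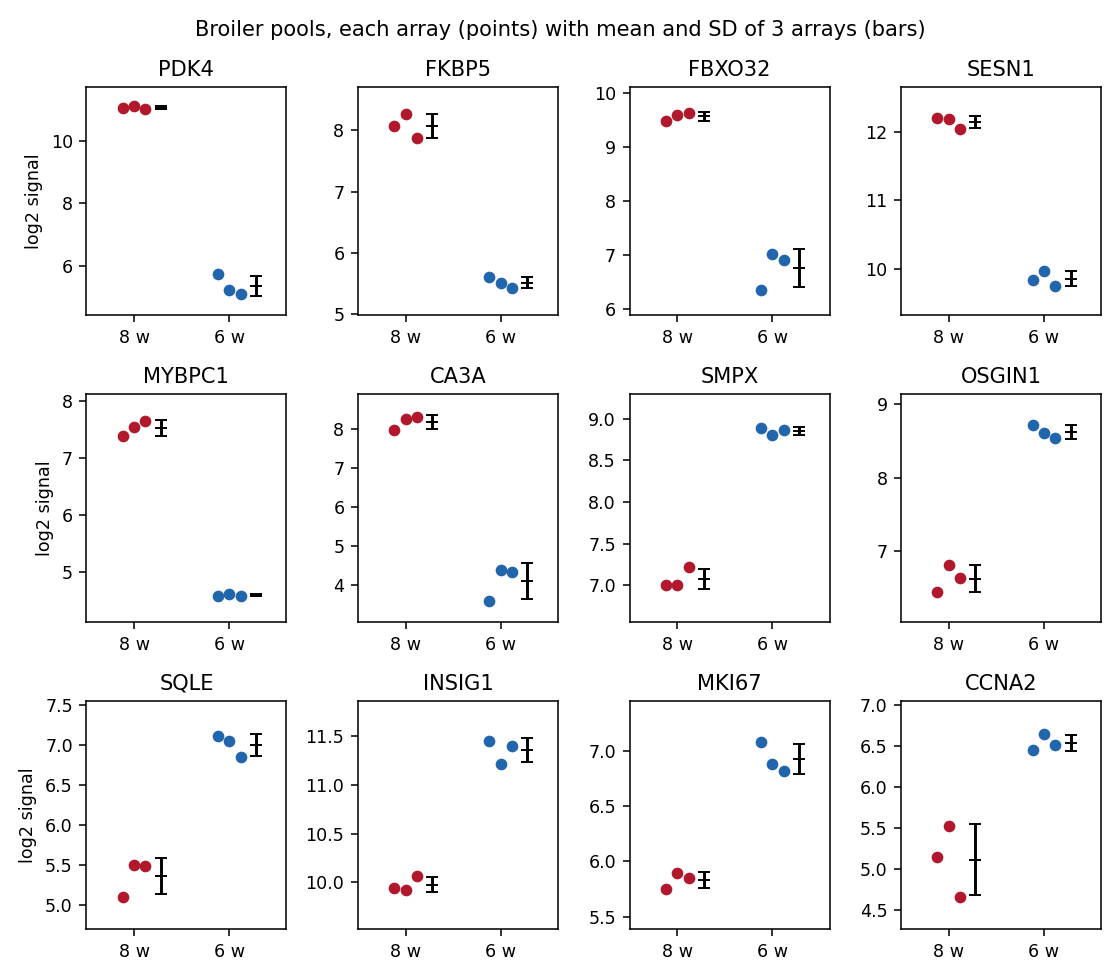
Log2 signal of 12 genes on each of the 3 arrays of the broiler pool of 8 w (red, left in each panel) and of 6 w (blue, right), with the mean and SD of the 3 arrays in black. All 12 are called genes, so by this choice their arrays do not overlap between the ages and differ at least 2-fold. The size of the difference of the means runs from 1.10 for MKI67 to 5.70 for PDK4.

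Genes that muscle switches on in fasting or under glucocorticoids were higher at 8 w as a group. Of 39 members measured, 17 were called higher and 0 lower, beside 0.676% and 0.492% of all genes, and the median change was 0.61, beside -0.02 over all genes. The list was chosen with earlier results of these data known, so these counts are a description. The list holds the regulators, the enzymes and the ligases of this response. Among its regulators, FKBP5, a co-chaperone that the glucocorticoid receptor induces and that restrains it, read 8.07, 8.26 and 7.87 at 8 w, against 5.60, 5.50 and 5.43 at 6 w. Its 3 probe sets gave changes of 2.56, 3.72 and 4.27, all in one direction. KLF15, a glucocorticoid-induced factor that drives amino acid breakdown, stood at 9.83, 9.91 and 9.75 at 8 w and at 7.91, 7.87 and 7.60 at 6 w (a change of 2.03). FOXO3, a FoxO factor, had 9.48, 9.63 and 9.65 at 8 w, against 7.52, 7.54 and 7.76 at 6 w (a change of 1.98), and FOXO1 was called as well, at 1.09.

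The ubiquitin ligases that mark muscle protein for breakdown were called with them. FBXO32, also known as atrogin-1, read 9.48, 9.59 and 9.63 at 8 w, against 6.35, 7.01 and 6.91 at 6 w, a change of 2.81 (7.01-fold). TRIM63, also known as MuRF1, read 10.60, 10.68 and 10.59 at 8 w, against 9.44, 9.55 and 9.62 at 6 w (2.13-fold). FBXO30, a further ligase, changed by 1.28, with 1 of its 6 w arrays at 5.97 and the others at 6.77 and 6.94. Of 36 proteasome subunits 0 were called, with a median of -0.06. Of 38 listed autophagy and lysosome genes 0 were called, with a median of 0.05. Over all genes 0.676% were called higher and 0.492% lower, so few calls would be looked for in lists of this size. In 10 of the 38, however, the 8 w arrays lay wholly above those of 6 w, beside 10.4% of all genes. In 2 of the 38 they lay wholly below, beside 15.3% of all genes. The largest changes there were those of RB1CC1, BNIP3 and MAP1LC3A, which act in the making of autophagosomes or in mitophagy, at 0.69, 0.59 and 0.58. Called genes outside this list included PLA2G15, a lysosomal phospholipase, at 2.86 and the cathepsin CTSV at 1.15.

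SESN1, a sestrin that restrains the growth kinase mTORC1, was the brightest of the large rises. It stood at 12.20, 12.19 and 12.05 at 8 w, against 9.84, 9.97 and 9.75 at 6 w, and its 2 probe sets changed by 2.29 and 2.85. The other called members of the list, in order of their change, were ARRDC2, GLUL, UCP3, IRS2, KLF9, LPIN1, CTSV and ZFAND5, named here after their values were seen, and they changed by 1.96 to 1.02. GLUL makes glutamine from glutamate, UCP3 is a mitochondrial carrier induced by fatty acids, and IRS2 passes on the insulin signal. Not every member moved this way. CDKN1A, which stops the cell cycle, changed by -0.75 and AMD1, an enzyme of polyamine synthesis, by -0.69, and NR3C1, the glucocorticoid receptor, changed by 0.06.

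The levels at the other ages show where the 2 pools stood. PDK4 averaged 9.90 at 2 w, 7.72 at 4 w, 5.35 at 6 w and 11.05 at 8 w in broilers. FKBP5 averaged 8.73, 7.35, 5.51 and 8.07 at the same ages, and FBXO32 averaged 9.60, 8.71, 6.76 and 9.57. For these genes the 6 w pool was the lowest of the later broiler pools and the 8 w pool stood above that of 4 w. With 1 pool per age, the age and the pool cannot be told apart. Of the 17 called members, 16 had their lowest level in the 6 w broiler pool among the 8 pools of both lines from 2 w to 8 w, and 8 had their highest level in the 8 w broiler pool. Over all genes 11.3% were lowest in the 6 w pool and 9.39% highest in the 8 w pool, but genes called higher at 8 w lean to these places by their choice. Of all 88 genes called higher, 73.9% were lowest in the 6 w pool and 55.7% highest in the 8 w pool. For the 17 members the latter share was 47.1%, and the counts are a description. The median level of the list was 7.86 at 2 w, 7.77 at 4 w, 7.22 at 6 w and 8.31 at 8 w in broilers, and 8.17, 7.88, 8.08 and 8.00 at these ages in layers.

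**Figure D3:**
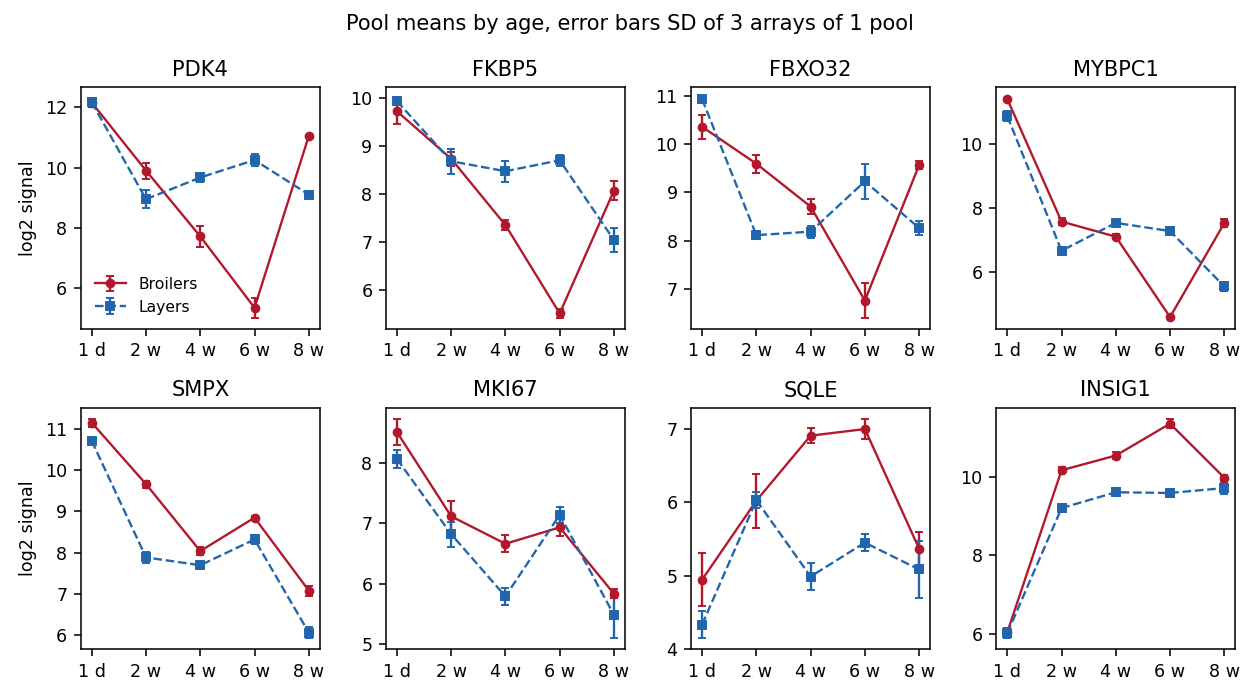
Mean log2 signal by age, from 1 d to 8 w, of 8 genes in broilers (red circles, solid lines) and layers (blue squares, dashed lines), with error bars for the SD of the 3 arrays of 1 pool. PDK4, FKBP5, FBXO32 and MYBPC1 have their lowest broiler value at 6 w, while SMPX and MKI67 are lower at 8 w than at 6 w in both lines.

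Lists of fuel use held a few called genes each, with medians near 0. Of 36 genes of fatty acid oxidation and ketone metabolism, 4 were called higher and 0 lower, beside 0.676% and 0.492% of all genes, with a median of -0.00. These were PDK4, UCP3, PNPLA2 and CD36. UCP3 read 9.76, 9.92 and 9.52 at 8 w, against 7.73, 8.05 and 8.41 at 6 w. PNPLA2, the lipase that starts the release of fatty acids from stored fat, changed by 1.16, and CD36, which takes fatty acids into the cell, by 1.05. With all its probe sets averaged, PNPLA2 changed less than 2-fold. Of 38 genes of lipid synthesis and fat cells, 4 were likewise called higher, against the same 0.676% of all genes, and 0 lower, with a median of -0.01. Beside CD36 these were LPIN1 and AGPAT2, both enzymes on the way to triglyceride, and G0S2, an inhibitor of the lipase PNPLA2, at changes of 1.28, 1.00 and 1.00. AGPAT2 was dim, at means of 4.65 at 8 w and 3.65 at 6 w.

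Among 38 glycolysis and glycogen genes 2 were called higher and 0 lower, beside 0.676% and 0.492% of all genes, with a median of -0.02. PFKFB3, which makes the activator of phosphofructokinase, read 7.97, 7.04 and 8.06 at 8 w, against 5.37, 5.76 and 5.95 at 6 w. PPP1R3C, which brings protein phosphatase 1 to glycogen, had 8.79, 9.09 and 9.23 at 8 w, against 6.97, 7.68 and 8.20 at 6 w, so that its arrays spread widely at 6 w. Both were also called higher at 8 w in layers, by 1.29 and 1.53. With all probe sets of each gene averaged, both changed less than 2-fold in broilers. The respiratory chain had 0 of 64 members called and a median of -0.10. In 21 of the 64 the 8 w arrays lay wholly below those of 6 w, beside 15.3% of all genes. In 8 they lay wholly above, beside 10.4%. Among 23 hypoxia response genes PFKFB3 and ADM, the vasodilator peptide adrenomedullin, were called higher, beside 0.676% of all genes. ADM changed by 1.23, and the median of the list was 0.27. Of the 23, 17 lay above 0, where 46.2% of all genes did. In 11 of the 23 the 8 w arrays lay wholly above those of 6 w, beside 10.4% of all genes. In 4 they lay wholly below, beside 15.3%.

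Carriers of amino acids were called in both directions. SLC43A2, a carrier of large neutral amino acids, read 7.66, 7.81 and 7.69 at 8 w, against 5.57, 5.56 and 6.01 at 6 w (4.01-fold). The change of SLC7A5, the light chain of the exchanger for large neutral amino acids, was opposite in sign. It read 6.74, 7.12 and 6.79 at 8 w, against 8.35, 8.37 and 8.22 at 6 w, a change of -1.43. That is its brightest probe set, and the mean of all its probe sets changed less than 2-fold. ASNS, asparagine synthetase, a target of the amino acid response factor ATF4, had 5.71, 5.84 and 5.64 at 8 w, against 7.28, 7.27 and 6.95 at 6 w, a change of -1.43. In the amino acid response list 0 of 26 members were called higher and these 2 lower, beside 0.676% and 0.492% of all genes. The median of the list was -0.23, and ATF4 itself changed by 0.09.

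Sterol synthesis genes were lower at 8 w. Of 20 members, 6 were called lower and 0 higher, beside 0.492% and 0.676% of all genes, 18 lay below 0, and the median was -0.58, beside -0.02 over all genes. SQLE, squalene epoxidase, read 5.10, 5.51 and 5.49 at 8 w, against 7.10, 7.05 and 6.84 at 6 w, a change of -1.63 (3.1-fold). INSIG1, which holds SREBP2 in the endoplasmic reticulum and is itself a target of SREBP2, stood at 9.94, 9.92 and 10.06 at 8 w and at 11.45, 11.22 and 11.40 at 6 w. Its 3 probe sets changed by -1.19 to -1.46. NSDHL and DHCR7, late enzymes of the pathway, changed by -1.21 and -1.13, where NSDHL was dim, at means of 3.66 at 8 w and 4.87 at 6 w. STARD4, a carrier of cholesterol, changed by -1.08, and ACAT2, the thiolase of the first step, by -1.03.

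Below the 2-fold line stood HMGCS1, which makes HMG-CoA, at -0.98, LSS, lanosterol synthase, at -0.97 and SREBF2, the gene of SREBP2, at -0.57. CYP51A1 changed by -0.06 and FDFT1 by -0.08, so that the pathway did not move as 1 block. In layers 0 of the 20 members were called and the median was -0.07. The median level in broilers was 6.44 at 2 w, 6.62 at 4 w, 6.67 at 6 w and 6.16 at 8 w, while in layers it was 6.56, 6.14, 6.16 and 6.09 at these ages. All 6 called members were highest in the 6 w broiler pool among the 8 pools from 2 w to 8 w, a place to which genes called lower at 8 w lean by their choice, since 65.6% of all genes called lower and 14% of all genes held it. For DHCR7 and ACAT2 the dimmer probe sets changed by between -0.13 and 0.06.

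Cell cycle genes were lower at 8 w in small steps. Of 50 members, 47 lay below 0 and in 36 of these the arrays of the 2 ages did not overlap, beside 15.3% of all genes. Of the 50, 6 were called lower, beside 0.492% of all genes, and the median was -0.57, beside -0.02 over all genes. MKI67, the Ki-67 antigen of dividing cells, read 5.75, 5.90 and 5.85 at 8 w, against 7.08, 6.88 and 6.82 at 6 w, a change of -1.10. CCNA2, cyclin A2 of S phase and G2, had 5.15, 5.53 and 4.67 at 8 w, against 6.46, 6.65 and 6.52 at 6 w, a change of -1.43 on its brighter probe set, while the other, at 2.99 at 8 w, changed by 0.18. CDCA3, INCENP, SMC2 and CDC20, which act in chromosome condensation and mitosis, changed by -1.35, -1.18, -1.15 and -1.01. INCENP was dim, at means of 4.02 at 8 w and 5.21 at 6 w. In layers 12 of the 50 were called lower, beside 58 of 13009 genes, and the median was -0.69, beside -0.02 over all genes. MKI67 averaged 7.11 at 2 w, 6.66 at 4 w, 6.93 at 6 w and 5.83 at 8 w in broilers.

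**Figure D4:**
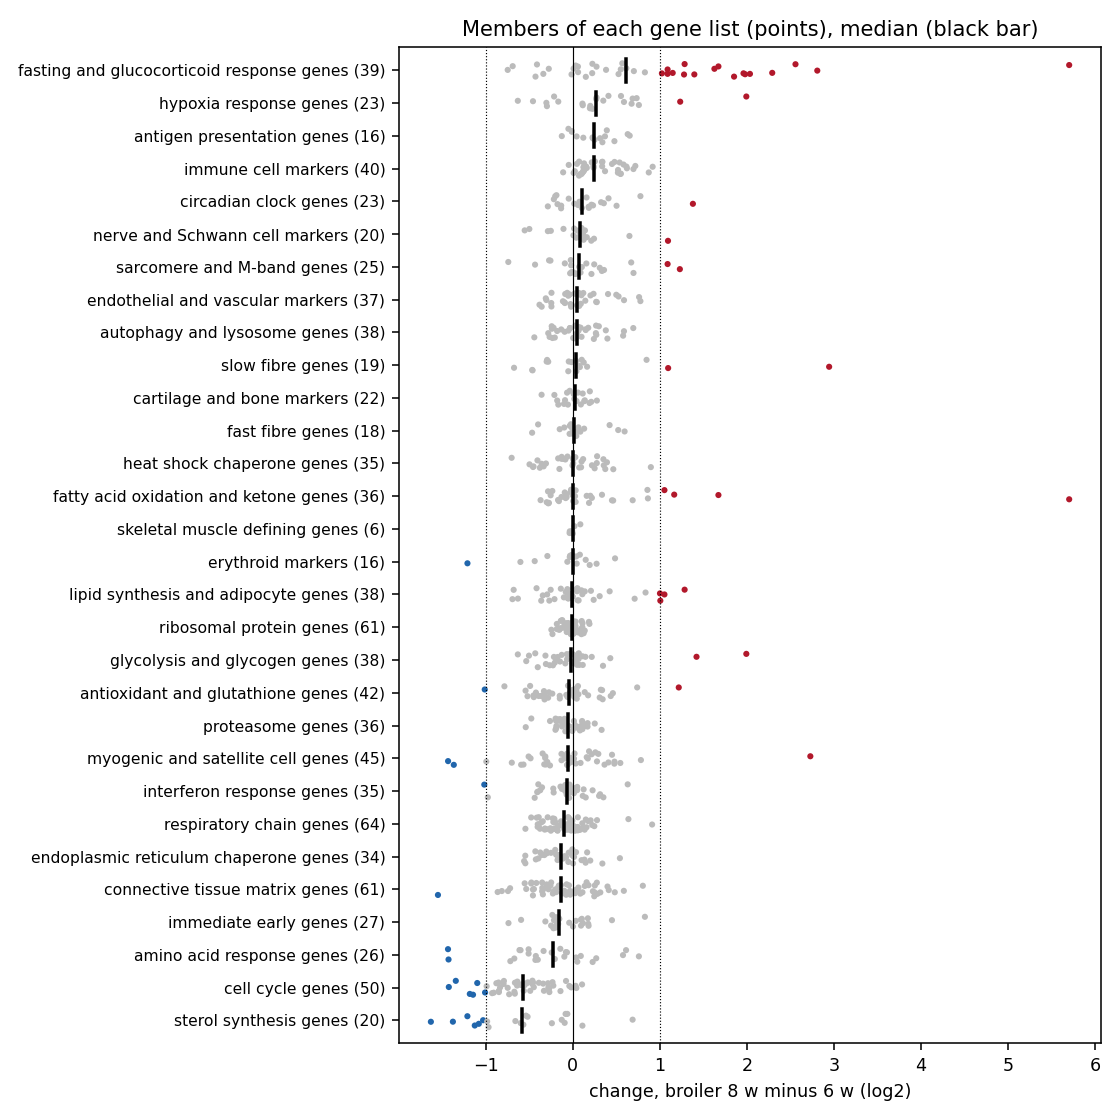
Change of the members of 30 gene lists between the broiler pools (8 w minus 6 w, log2, horizontal axis), 1 point per gene, red where called higher, blue where called lower and grey otherwise, with the median as a black bar and the number of members in brackets. The fasting and glucocorticoid response list has the highest median, 0.61, and the sterol synthesis and cell cycle lists the lowest, -0.58 and -0.57.

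Regulators of muscle growth went in both directions. Of 45 myogenic and satellite cell genes, 1 was called higher and 2 lower, beside 0.676% and 0.492% of all genes, and the median was -0.06. FGF1, a fibroblast growth factor, read 7.60, 7.66 and 7.41 at 8 w, against 4.92, 4.82 and 4.74 at 6 w, a change of 2.73 (6.63-fold), with 0.56 and -0.05 on its 2 dimmer probe sets. MUSTN1, a small nuclear protein of muscle and bone, had 8.83, 8.98 and 8.64 at 8 w, against 10.28, 10.22 and 10.25 at 6 w, a change of -1.43. FGF16, a further fibroblast growth factor, changed by -1.37, with the 6 w arrays at 5.83, 5.98 and 6.66.

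Few fibre genes were called. The fast fibre list had 0 of 18 members called on their brightest probe sets, beside 0.676% of all genes called higher and 0.492% lower. Its median was 0.01, but its member MYH1B fell by more on other probe sets, given below. The slow fibre list had 2 of 19 called higher, MYBPC1 and MB, and 0 lower, beside 0.676% and 0.492% of all genes. Its median change was 0.04, but the changes ran from -0.68 to 2.94. In 5 of the 19 the 8 w arrays lay wholly above those of 6 w, beside 10.4% of all genes. In 6 they lay wholly below, beside 15.3%. The median level of the list was low, at 4.22 at both ages. MYBPC1, the slow form of myosin-binding protein C, read 7.38, 7.55 and 7.66 at 8 w, against 4.57, 4.61 and 4.57 at 6 w, a change of 2.94 (7.7-fold), and its 3 other probe sets changed by 0.39 to 2.83. MB, myoglobin, the oxygen store of slow fibres, stood at 6.27, 6.09 and 5.85 at 8 w and at 4.95, 5.12 and 4.84 at 6 w (2.14-fold). The slow troponins TNNI1 and TNNC1 changed by -0.05 each, MYL2 by 0.07 and MYH7B by 0.10.

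MYH1B, a fast myosin heavy chain gene, had probe sets that differed widely. On its brightest probe set it read 9.84, 9.97 and 9.92 at 8 w, against 10.46, 10.41 and 10.26 at 6 w, a change of -0.47. On its 2 other probe sets it changed by -5.52 and -3.82, at means of 4.39 and 7.26 at 8 w, against 9.91 and 11.07 at 6 w. The change of -5.52 was the largest fall of any called probe set. At the earlier ages the 3 probe sets averaged 11.63, 12.18 and 12.89 at 1 d, and 8.52, 6.69 and 7.81 at 2 w. MYH1C, measured by 1 probe set, changed by 0.52 and the 2 probe sets of MYH1E by 0.02 and 0.13. The chicken fast myosin genes are near copies of each other, so which transcript these probe sets report is uncertain.

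Structural genes of the fibre added a few calls. Of 25 sarcomere and M-band genes, PDLIM3, an actinin-binding protein of the Z disc, and TRIM63 were called higher and 0 lower. Over all genes 0.676% were called higher and 0.492% lower, and the median of the 25 was 0.07. In 7 of the 25 the 8 w arrays lay wholly above those of 6 w, beside 10.4% of all genes. In 2 they lay wholly below, beside 15.3%. Outside this list the actin gene ACTC1 was called lower, at means of 11.09 at 8 w and 12.40 at 6 w. Its change was -1.31 in broilers and -2.13 in layers, and it was singled out after its values were seen. PDLIM3 read 12.06, 12.03 and 12.05 at 8 w, against 10.69, 10.87 and 10.89 at 6 w. SMPX, a small protein of striated muscle, had 7.01, 7.00 and 7.21 at 8 w, against 8.89, 8.80 and 8.86 at 6 w, a change of -1.78. All 4 probe sets of SMPX changed in this direction, by -0.81 to -2.42. NT5DC1, a gene with a nucleotidase domain, stood at 7.89, 8.11 and 7.82 at 8 w and at 9.67, 9.70 and 9.67 at 6 w, and its 3 probe sets changed by -1.60 to -3.03.

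Further genes were among the largest changes. ASB2, a muscle adaptor of a ubiquitin ligase, read 9.97, 10.10 and 10.12 at 8 w, against 7.32, 7.38 and 7.60 at 6 w (6.2-fold). PLA2G15, a lysosomal phospholipase, changed by 2.86 and PM20D2, of the M20 peptidase family, by 2.97. OSGIN1, named for its induction by oxidative stress, read 6.44, 6.80 and 6.62 at 8 w, against 8.72, 8.60 and 8.54 at 6 w, a change of -2.00. ALB, serum albumin, made in the liver, had 4.07, 4.04 and 3.93 at 8 w, against 6.26, 6.20 and 6.13 at 6 w, a change of -2.18. ALB was called lower in layers too, at -1.25. It averaged 3.53 at 2 w and 7.31 at 4 w in broilers, and 3.56 and 8.51 at these ages in layers. The rest of the 15 largest falls, by the brightest probe set of each gene and with the higher pool at 6 or more, were MTMR7, LIPG, CCSAP, LSG1 and LOC424014, between -1.60 and -1.41. The 3 other probe sets of LSG1 changed by 0.06 to 0.12. Those of MTMR7 changed by -0.01 and -0.50, and the 3 probe sets of LOC424014 by -0.21 to -1.56.

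The lists of other functions held few calls, to be set beside 0.676% of all genes called higher and 0.492% called lower. NFIL3, a repressor of the D-box genes of the clock, was the only clock gene called of 23, at 1.38, and the median was 0.10. Of the 23, 15 lay above 0, beside 46.2% of all genes. The 8 w arrays lay wholly above those of 6 w in 5 clock genes, beside 10.4% of all genes, and wholly below in 0, beside 15.3%. GSTZ1 was called higher and GSTT1 lower, both glutathione transferases, among 42 antioxidant genes. The dimmer probe set of GSTT1 changed by -0.22. IFI6 was the only interferon response gene called of 35, at -1.02, and 0 of 27 immediate early genes, 0 of 35 heat shock chaperones, 0 of 34 chaperones of the endoplasmic reticulum and 0 of 61 ribosomal protein genes were called. None of 16 antigen presentation genes was called either, but 12 lay above 0, beside 46.2% of all genes, and the median was 0.24. In 9 of the 16 the 8 w arrays lay wholly above those of 6 w, beside 10.4% of all genes. In 0 they lay wholly below, beside 15.3%. COL14A1, a collagen of the fibril surface, was the only matrix gene called of 61, at -1.55, where 4 of its 6 probe sets changed by -0.47 to 0.19. The 8 w arrays lay wholly below those of 6 w in 13 endoplasmic reticulum chaperones, 22 matrix genes and 15 antioxidant genes, beside 15.3% of all genes. They lay wholly above in 2, 5 and 7 members of these lists, beside 10.4%. Among the 35 heat shock chaperones 11 lay wholly above, beside 10.4% of all genes, and 8 wholly below, beside 15.3%. Of 44 genes that the study names, 6 were called higher and 4 lower, beside the same 0.676% and 0.492% of all genes. Since the study chose them on these samples, they are not independent evidence of a direction.

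Markers of other cell types held few calls, to be set beside 0.676% of all genes called higher and 0.492% called lower. The summed signals of several lists, however, did not overlap between the ages. None of 40 immune cell markers was called, but 38 lay above 0, where 46.2% of all genes did, with a median of 0.24. In 19 of the 40 the 8 w arrays lay wholly above those of 6 w, beside 10.4% of all genes. Their summed signal, as the log2 of the sum over the list on each array, was 11.54 to 11.69 at 8 w, against 11.24 to 11.28 at 6 w. CD3D, a chain of the T cell receptor complex, read 7.06, 7.20 and 6.84 at 8 w, against 6.55, 6.10 and 5.70 at 6 w, and CD3E changed by 0.72. No marker of the list was at 0, since RMA gives every probe set a signal. Endothelial and vascular markers had 0 of 37 called with sums of 12.63 to 12.82 at 8 w and 12.44 to 12.58 at 6 w. Of these 37, however, 21 lay above 0 and 16 below, with a median of 0.05. In 7 the 8 w arrays lay wholly above those of 6 w, beside 10.4% of all genes. In 5 they lay wholly below, beside 15.3%. Cartilage and bone markers had 0 of 22 called with sums of 10.25 to 10.41 at 8 w and 10.17 to 10.28 at 6 w. MBP, the myelin basic protein, was called higher, at 1.09, as the only 1 of 20 nerve and Schwann cell markers, whose sums were 9.89 to 10.16 at 8 w and 9.76 to 9.85 at 6 w. Of these 20, 15 lay above 0, where 46.2% of all genes did, with a median of 0.08. In 2 of the 20 the 8 w arrays lay wholly above those of 6 w, beside 10.4% of all genes. In 3 they lay wholly below, beside 15.3%. Among the 8 pools from 2 w to 8 w, 9 of the 20 had their lowest level in the 6 w broiler pool, beside 11.3% of all genes. TFRC, the transferrin receptor, was the only 1 of 16 erythroid markers called, at -1.21 on 1 probe set and 0.02 on the other. The sums of that list were 11.8725 to 12.0164 at 8 w and 12.0221 to 12.1177 at 6 w, while 8 of its members lay above 0 and 8 below. The sums of the immune, endothelial and nerve lists were thus wholly higher at 8 w and those of the erythroid list, by a small margin, wholly lower. Those of the cartilage and bone list overlapped. Sums also lay apart in lists that mark no cell type. For immediate early genes they were 12.50 to 12.61 at 8 w and 12.37 to 12.49 at 6 w, while the median change was -0.16. For connective tissue matrix genes they were 15.08 to 15.23 at 8 w and 15.34 to 15.41 at 6 w. Such separation is thus not particular to cell type markers, and the part of these cell types in the other changes was not tested.

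The layers offer the same age step in other birds, although with 1 pool per line and age the difference between the lines cannot be tested. In layers 0.156% of all probe sets were called higher and 0.216% lower. Of the 188 probe sets called higher in broilers, 103 lay above 0 in layers, where 41.4% of all probe sets did. Of these 188, 9 were called higher in layers and 7 lower, and the 7 include the 3 probe sets of FKBP5. Of the 126 called lower in broilers, 84 lay below 0 in layers, where 58.6% of all probe sets did. Of these 126, 25 were called lower in layers and 2 higher, to be set beside the same 0.216% and 0.156%. PDK4 averaged 9.11 ± 0.09 at 8 w and 10.25 ± 0.21 at 6 w in layers (SD of 3 arrays), a change of -1.15. FKBP5 averaged 7.04 ± 0.24 at 8 w and 8.70 ± 0.11 at 6 w, and MYBPC1 5.54 ± 0.15 at 8 w and 7.28 ± 0.12 at 6 w. In the fasting and glucocorticoid response list 1 of 39 members was called higher and 2 lower in layers, beside 22 and 58 of 13009 genes. The median of the list in layers was -0.04, beside -0.02 over all genes. SMPX, by contrast, was called lower at 8 w in both lines, with changes of -1.78 in broilers and -2.27 in layers on its brightest probe set.

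**Figure D5:**
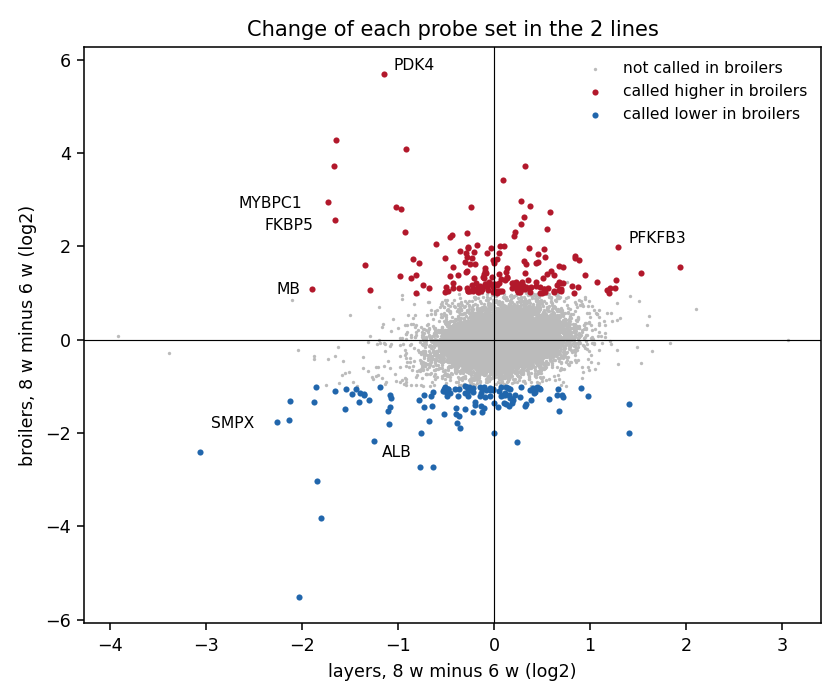
Change of each probe set between 8 w and 6 w in broilers (vertical axis, log2) against the change in layers (horizontal axis, log2), with probe sets called higher in broilers in red and those called lower in blue. PDK4, FKBP5, MYBPC1 and MB lie above 0 in broilers and below 0 in layers, and SMPX lies below 0 in both.

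Taking both lines as replicates gives the only test of this age step over pools. In limma each of the 10 pools was 1 sample, with terms for age and line, and the contrast of 8 w minus 6 w averages broilers and layers, so it does not test the broiler change alone. At an adjusted p under 0.05, 1 of 38439 probe sets was higher (0.0026%) and 0 were lower (0%), and 2954 had an unadjusted p under 0.05. The last count is not corrected for the number of tests, and many of the 2954 would be reached by chance. Without the second array of every pool 0 were called, and without the third array 1 was higher and 1 lower. The one called belongs to LOC418667, which averaged 4.74 at 8 w and 3.63 at 6 w in broilers and 5.17 at 8 w and 3.96 at 6 w in layers, a change of 1.16 ± 0.09 (SE, limma adjusted p = 0.0109), and it was not called without an intensity trend in the variance, where the smallest adjusted p was 0.0955. Its brighter probe set changed by 0.96 in broilers and by 0.23 in layers. The next smallest on the lower side were LOC424473, at -1.60 ± 0.16 (adjusted p = 0.0550), and SMPX, CDCA3, NT5DC1 and CFL2, at -1.93, -1.38, -2.44 and -0.87 (adjusted p = 0.162 for each). The brighter probe set of CFL2 changed by -0.08 over both lines and the brightest of LOC424473 by -0.29. On the higher side LGALS2, a galectin, changed by 0.87 (adjusted p = 0.162), and FGL2, TARP and PLAT by 1.17, 0.69 and 0.84 (adjusted p of 0.269 to 0.291).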

How the data were processed

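Per the labels and the methods, the authors made the deposited log2 values with RMA, and nothing was rescaled here. Present calls came from MAS5 and were not used. For neither tool do the sources used here give a version. After removal of 96 controls from 38535 rows, 38439 probe sets remained. A single symbol was annotated for 27168 of these, more than 1 for 177 and no symbol for 11094. A RefSeq table (assembly GRCg7b), used only to update names, held 26853 of them. A gene was represented by the probe set with the highest mean over the 6 broiler arrays. Some members of the lists were matched through synonyms, but not where these pointed to a related gene.

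Arrays of a pool were averaged, and their SD is technical. The broiler and layer changes have 1 pool per age and no test. Called means at least 2-fold with arrays of the pools not overlapping. The age step over both lines was tested with limma 3.58.1 in R 4.3.3 on 10 pool means (age and line, intensity trend, Benjamini-Hochberg over 38439 probe sets), with 4 residual degrees of freedom. Both procedures were tested on simulated data. The number of pools limits the precision. Same-numbered arrays of the 2 broiler pools deviated together slightly (correlations of 0.18, 0.12 and 0.17 over probe sets), so their differences were also taken in pairs. The labels do not say what a shared number stands for.

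Genes with values in the text are, with 1 symbol, the 15 largest called rises and the 15 largest called falls with the higher pool at 6 or more, in each list the called members (at most the 6 largest) or else the 3 largest changes, and the 5 smallest p-values in each direction over both lines. Other genes were chosen after their values were seen. The comparison and the 31 lists were chosen with earlier results of these data known. Alternatives covered the fold and array criteria, normalization, dim probe sets, the choice of probe set and each array left out. Sequences of genes and promoters were not analysed here.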

Additional observations from a re-analysis of the deposited data

Results flagged for a closer look

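The change between 8 w and 6 w was called in opposite directions in broilers and layers for 4 of the genes named. PDK4 changed by 5.70 in broilers and by -1.15 in layers. MYBPC1 changed by 2.94 in broilers and by -1.74 in layers. FKBP5 changed by 2.56 in broilers and by -1.66 in layers. MB changed by 1.09 in broilers and by -1.90 in layers. The difference between the lines was not tested, since each line has 1 pool per age.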

How the results depend on the processing

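Of the broiler counts (188 higher, 126 lower at 8 w), the threshold moved most: 605 and 611 were called at 1.5-fold and 59 and 20 at 3-fold. With the higher pool at 6 or more 140 and 83 were called, and with 1 probe set per gene, which counts fewer features, 88 and 64. Fold alone gave 190 and 126, a change over 3 times the larger array SD 157 and 115, quantile normalization 195 and 116, median-centred arrays 182 and 129, and probe sets above the median level 174 and 116. The paired version, a replicate block in which all 3 differences of same-numbered arrays had to share a direction, gave 190 and 126. Leaving out 1 array gave 166 to 223 higher and 114 to 156 lower. The layer counts (60 and 83) were 60 and 89 after quantile normalization, and 45 to 152 and 80 to 119 with 1 array left out, all chosen after seeing the data.

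Over both lines (1 higher, 0 lower), limma without the intensity trend gave 0 and 0, the 8 pools from 2 w to 8 w 4 and 2, quantile normalization 1 and 1, and probe sets above the median level 0 and 0. The 30 arrays taken as independent samples gave 351 and 336, which treats technical repeats as birds. Without 1 array number there were 0 to 1 higher and 0 to 1 lower. The cause of these differences was not tested.

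In the list of fasting and glucocorticoid response genes 17 members were called; 20 were called at 1.5-fold, 10 at 3-fold and 15 to 17 with 1 array left out. The sterol synthesis list had 10 called at 1.5-fold, 1 at 3-fold and 5 to 8 with 1 array left out, and the cell cycle list 25, 0 and 5 to 7. No list median moved by over 0.16 under any alternative. Of 105 genes named, 39 moved by more than the combined array SD of both pools when all their probe sets were averaged and 0 under any other alternative. Of the 60 called among them, 17 were then under 2-fold (ACAT2, CCNA2, CDCA3, COL14A1, DHCR7, FBXO30, FGL2, GSTT1, LSG1, MBP, MTMR7, PFKFB3, PNPLA2, PPP1R3C, SLC7A5, STARD4 and TFRC), and none of the 60 changed sign under any alternative. Dim probe sets limit precision, and 1 pool per age leaves the spread between birds unmeasured.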

Other observations

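Outside the rule for named genes, the layer pools of 8 w and 6 w differed in further slow fibre genes that were not called in broilers. CSRP3, the muscle LIM protein, changed by 0.08 in broilers and by -3.92 in layers, and MYOZ2, a calcineurin-binding protein of slow fibres, by -0.30 in broilers and by -3.39 in layers. MYL10, a myosin light chain, changed by 0.85 in broilers and by -2.11 in layers. In all, 0 of 19 slow fibre genes were called lower in broilers and 5 in layers, beside 64 and 58 of 13009 genes. The difference between the lines was not tested. The median level of this list in broilers was 6.53 at 1 d, 3.84 at 2 w, 4.10 at 4 w, 4.22 at 6 w and 4.22 at 8 w, against 7.37, 3.90, 7.39, 5.87 and 3.88 in layers at these ages. These genes were singled out after their values were seen.

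By the same rule for a call, the steps between neighbouring ages of broilers gave 832 probe sets higher and 1708 lower at 2 w relative to 1 d, 142 and 96 at 4 w relative to 2 w, 31 and 91 at 6 w relative to 4 w, and 188 and 126 at 8 w relative to 6 w. Neighbouring steps share a pool.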
